A study of Mus musculus with 36 samples.

Results

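Transcripts of 10 genes that mark or tune neurons of the suprachiasmatic nucleus (SCN), the hypothalamic clock of mammals, were followed over the day in mice on 2 diets. They were 4 transcription factors (Lhx1, Six3, Six6 and Zfhx3), 4 receptors (Vipr2, Prokr2, Avpr1a and Gpr176) and 2 regulators of signalling inside the cell (Rgs16 and Rasl11b). The genes were taken by name from 24883 rows in each table, and all 10 had a row in both tables and passed the filter on low values in every fit. All libraries came from adult C57BL/6J mice with no transgene or mutation named in the labels. One arm was fed normal chow and the other a high-fat diet, each for 10 weeks, and tissue was taken at zeitgeber time (ZT) 0, 4, 8, 12, 16 or 20 h. Each of the 12 groups had 3 libraries, 36 in all. The sources used here do not say that the 3 came from separate animals, so p-values measure the spread between these libraries, which may be technical. The dissected region was enriched for the SCN and was not the SCN alone.

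SCN neurons use GABA and a set of peptides to keep their clocks in step. VIP from the ventral SCN acts on VIPR2 and raises cyclic AMP, vasopressin acts on AVPR1A, and PROK2, an output signal of the SCN, acts on PROKR2. GPR176 is an orphan receptor that couples to Gz and lowers cyclic AMP, and RGS16 shortens signalling by Gi proteins and so lets cyclic AMP rise around dawn. LHX1, SIX3, SIX6 and ZFHX3 are DNA-binding proteins needed for the SCN to form or for its cells to keep their peptide identity. RASL11B is a small GTPase-like protein of the RAS family whose role in the SCN is not well described.

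Values are FPKM, a fragment count scaled to transcript length and library size, rescaled in each library to a common sum of 1000000. The deposited FPKM summed to 302899 to 432336 per library, and the number of reads behind them is not given in the sources used here. SCN neuron transcripts were present in each library: none of the 6 genes of a list outside the 10 (Vip, Nms, Grp, Prok2, Syt10 and C1ql3) was at 0 anywhere, and Vip was lowest at 6.3. Their summed level ran from 69.6 to 155 (median 101) under normal chow and from 64.8 to 248 (median 102) under the high-fat diet. Neighbouring tissue was uneven. Striatal markers summed to 1190 in chow ZT 12 replicate 3 and 1670 in high-fat ZT 16 replicate 3, against a median of 132. Thalamic and cortical markers summed to 286 in chow ZT 8 replicate 2 and 269 in high-fat ZT 16 replicate 3, against 40.5. Liver transcripts were over 5 times their median in 4 libraries, namely chow ZT 0 replicate 1, chow ZT 4 replicate 1, high-fat ZT 0 replicate 3 and high-fat ZT 20 replicate 1. The 5 clock genes taken as a benchmark, Dbp, Nr1d1, Per1, Per2 and Arntl, were all called rhythmic over both diets, with Dbp at 2.29-fold peaking at ZT 9.54 and Arntl at 1.27-fold peaking at ZT 22.9.

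The stretches just upstream of 5 genes are shown because these genes carry the results below: Rgs16 and Rasl11b for their daily cycle, and Lhx1, Prokr2 and Vipr2 for rising and falling together between libraries. They come from RefSeq on GRCm38.p6, within 250 bases before the annotated start, with annotated exonic bases left out. The stretch of Rgs16 is chr1:153740103-153740348 (plus strand), that of Rasl11b chr5:74195076-74195285 (plus), that of Lhx1 chr11:84525536-84525659 (minus), that of Prokr2 chr2:132385448-132385697 (minus) and that of Vipr2 chr12:116077476-116077725 (plus). Capitals mark matches to any of 7 motifs on either strand: CACGTG (E-box), CACGTT (an E-box variant), TTANGTAA (D-box), TGACG (a partial cAMP response element), AGGTCA (a nuclear receptor half-site), TAATTA (bound by LIM homeodomain proteins) and GGGCGG (GC box, whose reverse strand reads CCGCCC).
Rgs16: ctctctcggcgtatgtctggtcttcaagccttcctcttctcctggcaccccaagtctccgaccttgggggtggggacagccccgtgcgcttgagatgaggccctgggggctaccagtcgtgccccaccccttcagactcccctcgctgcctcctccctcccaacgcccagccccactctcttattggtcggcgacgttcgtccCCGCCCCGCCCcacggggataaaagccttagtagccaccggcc
Rasl11b: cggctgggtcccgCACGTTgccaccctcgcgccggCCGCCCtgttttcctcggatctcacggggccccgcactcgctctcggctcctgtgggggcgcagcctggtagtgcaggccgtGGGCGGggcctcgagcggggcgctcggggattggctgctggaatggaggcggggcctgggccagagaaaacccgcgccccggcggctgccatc
Lhx1: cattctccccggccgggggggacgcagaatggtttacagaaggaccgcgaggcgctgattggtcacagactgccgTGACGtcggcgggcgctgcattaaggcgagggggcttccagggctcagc
Prokr2: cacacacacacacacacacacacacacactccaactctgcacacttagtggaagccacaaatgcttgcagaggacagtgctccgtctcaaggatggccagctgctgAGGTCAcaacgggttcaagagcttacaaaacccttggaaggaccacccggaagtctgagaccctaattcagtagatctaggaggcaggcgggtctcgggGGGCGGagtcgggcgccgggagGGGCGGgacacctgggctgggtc
Vipr2: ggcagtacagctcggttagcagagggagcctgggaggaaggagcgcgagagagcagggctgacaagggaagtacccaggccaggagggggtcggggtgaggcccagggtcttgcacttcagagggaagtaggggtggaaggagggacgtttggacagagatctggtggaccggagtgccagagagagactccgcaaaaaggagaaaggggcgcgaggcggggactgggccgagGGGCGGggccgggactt

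The CACGTG and D-box letters were in none of the 10 upstream windows of 250 bases, beside 6.02% and 2.06% of 32851 such windows in the table. The E-box variant was in 1 window, that of Rasl11b at position -237 from the start, beside 3.85% of all windows. TGACG was in 2 windows (Lhx1 at -50 and Avpr1a at -165; 17.8% of all), AGGTCA in 1 (Prokr2 at -144; 14.0%) and TAATTA in none (4.84%). The GC box was in 6 of 10 windows against 32.7% of all, and the windows of the 10 genes had a median GC content of 64.4% against 52.4%. A match describes letters only and is not a site of binding.

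In GENCODE M21 on GRCm38 the genes lie on 8 chromosomes: Rgs16 at chr1:153740349-153745468, Gpr176 at chr2:118277110-118373419, Prokr2 at chr2:132337733-132385447, Rasl11b at chr5:74195286-74199481, Zfhx3 at chr8:107942644-108961630, Avpr1a at chr10:122448499-122453452, Lhx1 at chr11:84518284-84525535, Six6 at chr12:72939892-72944899, Vipr2 at chr12:116077726-116146261 and Six3 at chr17:85613608-85629302. Exons of Six3 overlap those of the antisense gene Six3os1 (mean level 14.0), and exons of Six6 overlap those of 4930447C04Rik on the other strand (mean level 7.53). The library kit keeps strand, but whether strand was used in counting is not given in the sources used here, so the levels of Six3 and Six6 are uncertain to that extent. Exons of Six3, Rgs16 and Gpr176 also overlap those of Gm28528, Gm28513 (both antisense) and Gm29232 (same strand), which have no row in the tables. The same limit holds for Rgs16. For Gpr176 the limit is another one, since strand cannot tell apart reads from exons shared with Gm29232.

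Rgs16 had the highest level of the 10, at a mean of 38.4 ± 15.9 (SD, n = 36 libraries). Six3 followed at 24.7 ± 3.7, then Gpr176 at 15.7 ± 1.96, Rasl11b at 13.6 ± 4.0 and Zfhx3 at 11.2 ± 3.32. The last 5 lay close together: Prokr2 at 5.08 ± 1.96, Avpr1a at 4.66 ± 1.24, Vipr2 at 4.53 ± 2.14, Six6 at 4.16 ± 2.4 and Lhx1 at 3.27 ± 1.09. In this order, Rgs16 was above Six3 in 34 of 36, Six3 above Gpr176 in 36, and Zfhx3 above Prokr2 in 34. The gap between Rgs16 and Six3 was 0.858 of the larger SD, since Rgs16 itself varied widely. The other 6 neighbours changed places often, the higher mean being the higher value in 17 to 23 of 36 libraries, and did not differ beyond their spread. FPKM are per length, so these are levels between genes on one scale.

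**Figure D1:**
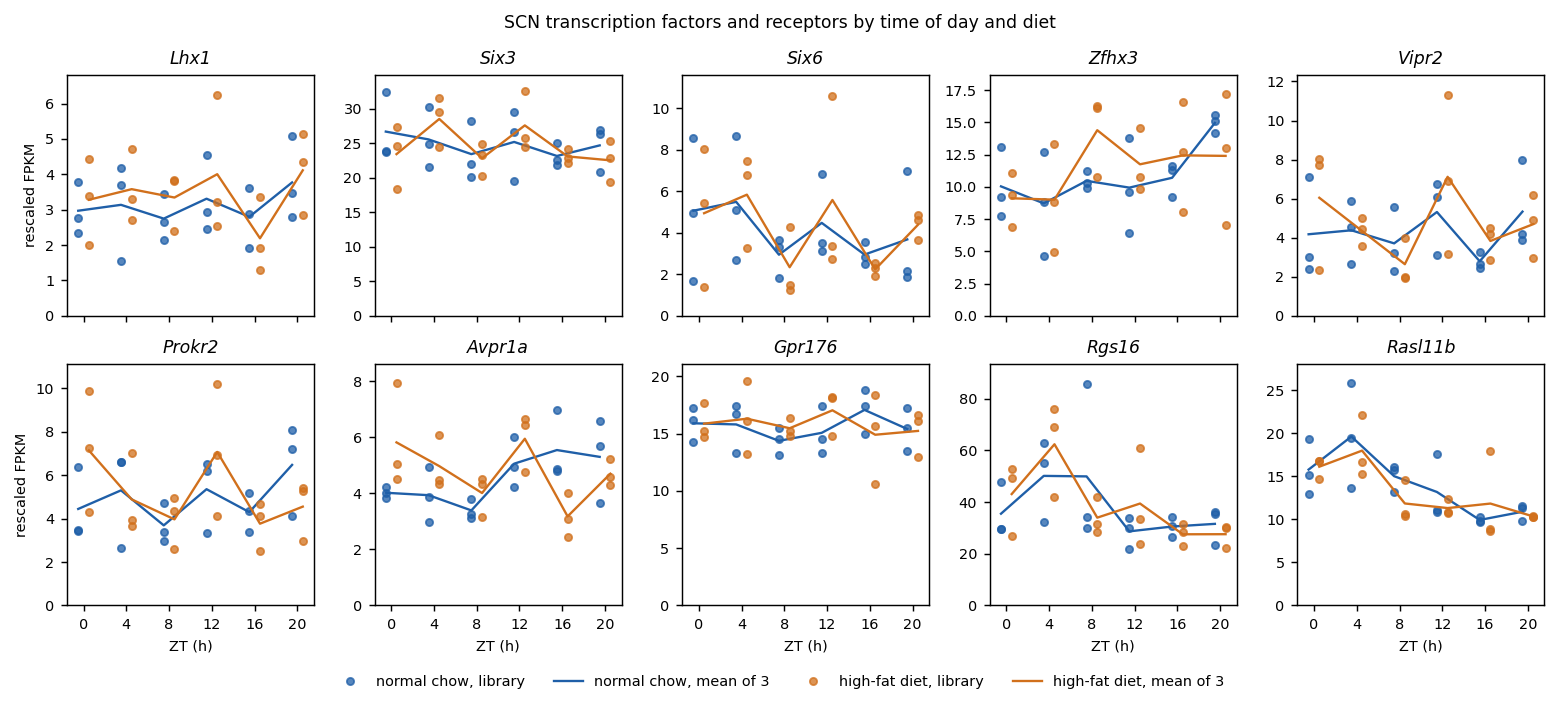
Level of each of the 10 genes (rescaled FPKM, linear axis from 0) against zeitgeber time in h, with 1 point per library, 3 per group, and lines through the group means for normal chow (blue) and high-fat diet (orange). Rasl11b and Rgs16 were highest around ZT 4, while in most panels the 3 libraries of a group spread about as widely as the time points.

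Over both diets a daily cycle was called for the 2 signalling regulators and for none of the transcription factors or receptors. The call of Rgs16 was close to the threshold (adjusted p = 0.0485 in limma) and held in 10 of 36 fits with a library left out. A cosine of period 24 h fitted over both diets was called for Rasl11b and Rgs16, 2 of 10 genes, where 2.18% of all 15173 rows tested were called. Both peaked at about ZT 4. Under normal chow alone 1 of the 10 was called, Rasl11b, beside 0.845% of rows, and under the high-fat diet alone 0 of 10, beside 0.0728% of rows. At an unadjusted p under 0.05 stood 2 of the 10 under chow (18.2% of rows) and 2 under the high-fat diet (8.64%). Calls are at an adjusted p under 0.05 in limma with a mean-variance trend, with Benjamini-Hochberg adjustment over all rows. Fold changes are on the log2(value + 1) scale, which understates changes of the lower genes.

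Rasl11b in the chow libraries was 19.4, 13.6 and 25.8 at ZT 4. It was 10.3, 9.81 and 9.65 at ZT 16 and 11.5, 11.3 and 9.82 at ZT 20. In the high-fat libraries it was 22.1, 15.2 and 16.6 at ZT 4 and 10.3, 10.3 and 10.4 at ZT 20. All 6 libraries of ZT 4 were thus above all 6 of ZT 20. These 2 times were not compared in a test, and the share of all rows that separate so was not computed. At ZT 16 under the high-fat diet the values were 8.9, 8.67 and 17.9, the high one being the library rich in striatal, thalamic and cortical markers. The fitted range from peak to trough was 0.72 ± 0.125 (SE) on the log2 scale, or 1.65-fold, with a peak at ZT 3.79 ± 0.662 h and an adjusted p of 0.00222 in limma over the 36 libraries. Within diets the range was 1.76-fold under chow (peak at ZT 4.46, adjusted p = 0.0435 in limma) and 1.57-fold under the high-fat diet (peak at ZT 2.96, adjusted p = 0.454). The cycle over both diets was called with each of the 36 libraries left out in turn, with adjusted p from 4.47e-05 to 0.00574 in limma. Without the libraries rich in striatal transcripts its range was 0.86 on the log2 scale. The call under chow alone rests on the 18 chow libraries, so only leaving out 1 of these could change it. It was lost in 14 of these 18 fits, and its highest adjusted p in limma was 0.0945, without chow ZT 16 replicate 3. Fewer cells of a type and less RNA per cell cannot be told apart in such bulk tissue.

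Rgs16 in the chow libraries was 55.3, 32.2 and 62.9 at ZT 4 and 30.9, 34.4 and 26.3 at ZT 16. In the high-fat libraries it was 68.9, 42.0 and 76.2 at ZT 4 and 31.4, 28.3 and 22.9 at ZT 16. Under the high-fat diet these groups did not overlap, and under chow 1 library of ZT 4 fell within the range of ZT 16. The share of all rows without overlap between these times was not computed. The highest value of all, 85.7, was in chow ZT 8 replicate 2, beside 34.2 and 29.9 in the other chow libraries of that time, and this library had the highest thalamic and cortical marker sum. The fitted range was 0.80 ± 0.196 on the log2 scale, or 1.75-fold, with a peak at ZT 4.47 ± 0.932 h and an adjusted p of 0.0485 in limma. It was 1.64-fold under chow (adjusted p = 0.28 in limma) and 1.87-fold under the high-fat diet (adjusted p = 0.496). The call held in 10 of 36 fits with a library left out, and the adjusted p reached 0.109 in limma without high-fat ZT 4 replicate 3. Without the libraries rich in thalamic and cortical transcripts the range was 0.70 with an adjusted p of 0.105 in limma. Medians of some marker lists at ZT 4 also differed from those at other times. Their ranges overlapped between times, and no list was tested for time of day. The SCN sum had a median of 116 there and its highest, 149, at ZT 12. Astrocyte markers (5 of 5 detected) had their lowest median at ZT 4, 881 (649 to 1050), against 1110 to 1210 at the other times. Pan-neuronal markers had their highest, 3060 against 2570 to 2840, and markers of other hypothalamic nuclei too, 3980 against 2730 to 3660. With astrocyte and pan-neuronal scores as covariates, an alternative chosen after seeing the data, the range of Rgs16 was 0.69 and its call was lost (adjusted p = 0.0927 in limma), while Rasl11b had 0.75 (adjusted p = 0.00126). With the SCN marker score as a covariate, the range was 0.69 for Rgs16 (adjusted p = 0.0331 in limma) and 0.68 for Rasl11b (adjusted p = 0.00249).

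The 4 transcription factors had fitted ranges over both diets of 1.07-fold (Lhx1), 1.08-fold (Six3), 1.35-fold (Six6) and 1.28-fold (Zfhx3), with adjusted p in limma from 0.585 to 0.934. Six6 had a median of 5.94 over the 6 libraries of ZT 4 (lowest 2.68, highest 8.67) and of 2.51 at ZT 16 (lowest 1.89, highest 3.53), so these time points overlapped. Zfhx3 had its lowest median, 8.83, at ZT 4 and its highest, 14.7, at ZT 20, again with overlap (4.6 to 13.3 and 7.02 to 17.2). Six3 stayed between medians of 22.7 and 27.2.

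Among the receptors, the ranges over both diets were 1.12-fold for Vipr2, 1.13-fold for Prokr2, 1.12-fold for Avpr1a and 1.01-fold for Gpr176, with adjusted p in limma from 0.78 to 0.994. Gpr176 was the flattest, with medians between 15.0 and 16.6 at the 6 times. Vipr2 had its highest median at ZT 12 (6.42) and its lowest at ZT 8 (2.76), and Prokr2 likewise (6.36 and 3.85). The peaks in fits that were not called have errors of 2.04 to 22.2 h over both diets.

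No gene of the 10 differed between diets over all time points, where 0.0132% of 15173 rows were called. Rgs16 averaged 37.7 ± 15.9 (SD, n = 18) under chow and 39.0 ± 16.3 under the high-fat diet, Six3 24.8 ± 3.71 and 24.7 ± 3.79, and Gpr176 15.6 ± 1.75 and 15.8 ± 2.2. The difference, high-fat diet minus chow on the log2 scale, was smallest in error for Gpr176, at 0.01 with a 95% interval from -0.11 to 0.14, and for Six3, at -0.01 from -0.14 to 0.13. It was least certain for Six6, at -0.01 from -0.4 to 0.39, and for Vipr2, at 0.10 from -0.23 to 0.42. The other 6 lay between -0.08 (Rasl11b, interval -0.25 to 0.1) and 0.08 (Lhx1, interval -0.16 to 0.32). In 7 of 10 the sign was towards the high-fat diet, beside 49.5% of all rows, and the median of the 10 was 0.042 beside -0.001. Adjusted p was 1 in limma for all 10, and the smallest unadjusted p over 48 alternatives was 0.0827, for Rasl11b. The signs of Six3, Six6, Prokr2, Gpr176 and Rgs16 changed in some alternatives, with values from -0.08 to 0.14. Each diet has a table of its own, so a difference in how the tables were made and diet cannot be told apart.

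**Figure D2:**
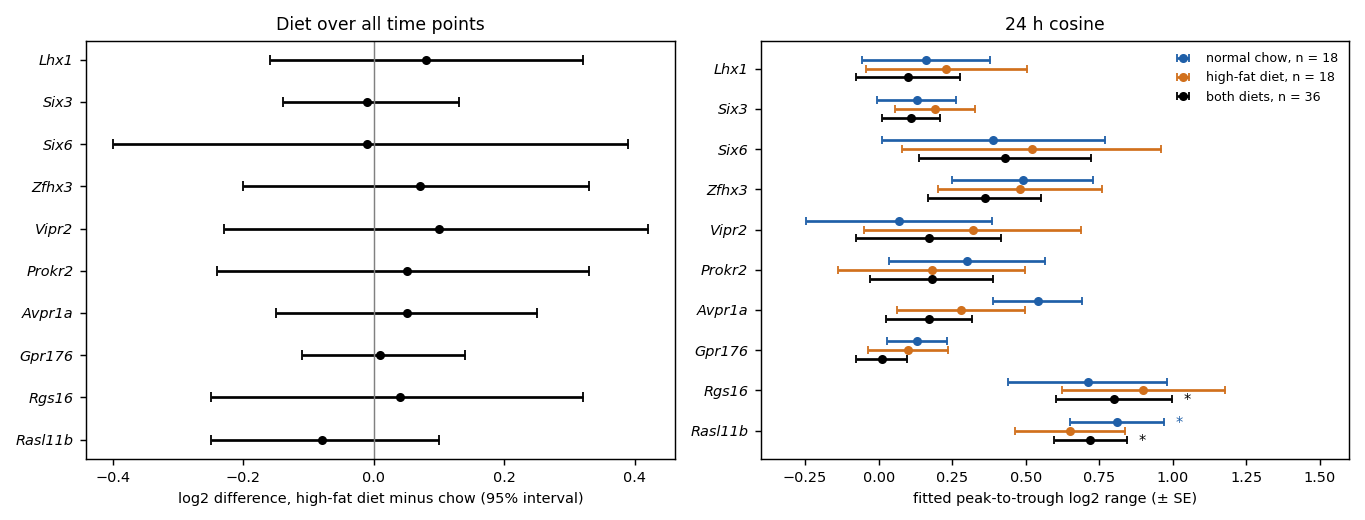
Left, difference between diets over all time points for each gene (log2 scale, high-fat diet minus chow, points with 95% intervals, 36 libraries); right, fitted peak-to-trough range of a 24 h cosine (log2 scale, points ± SE) under chow, high-fat diet and both, with asterisks where the adjusted p was under 0.05. All 10 intervals on the left include 0, and asterisks stand on the right for Rgs16 over both diets and for Rasl11b over both diets and under chow.

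At single times of day Avpr1a, the V1a vasopressin receptor, stood apart most. At ZT 16 it was 4.8, 6.98 and 4.85 under chow and 4.0, 3.1 and 2.43 under the high-fat diet, without overlap. At ZT 0 it was 3.82, 4.02 and 4.22 under chow and 7.92, 5.03 and 4.5 under the high-fat diet, again without overlap but with the opposite order. The share of all rows without such overlap was not computed. At an unadjusted p under 0.05 in limma stood 10.7% of all rows at ZT 16 and 3.9% at ZT 0. The difference was -0.65 ± 0.198 on the log2 scale at ZT 16 (adjusted p = 0.29 in limma) and 0.41 ± 0.198 at ZT 0 (adjusted p = 1). The test of whether the diet difference varied over the day gave an adjusted p of 0.72 in limma for Avpr1a. Its fitted cycle was 1.46-fold with a peak at ZT 17.0 under chow (adjusted p = 0.15 in limma) and 1.21-fold with a peak at ZT 2.83 under the high-fat diet (adjusted p = 0.733), and the test of that difference gave an adjusted p of 0.357. All of these but the cycle under the high-fat diet stood under 0.05 before adjustment, and none passed after it, here or in any alternative. High-fat ZT 16 replicate 3, the lowest Avpr1a library, was rich in striatal markers, and without such libraries the difference at ZT 16 was -0.51 (adjusted p = 0.873 in limma).

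None of the 10 was called between diets at ZT 0, 4, 8, 12, 16 or 20. Among all rows, 0 were called in limma at 5 of these times and 0.00659% at ZT 12, while 592, 227, 2442, 148, 1630 and 605 rows stood at an unadjusted p under 0.05. At ZT 8 the median difference of all rows was 0.12, so the values of that time are read against it. There Zfhx3 was 10.3, 9.91 and 11.2 under chow and 10.8, 16.1 and 16.3 under the high-fat diet, a difference of 0.41 ± 0.327 with an adjusted p of 0.49 in limma. Prokr2 at ZT 0 was 3.49, 6.4 and 3.45 under chow and 9.86, 7.27 and 4.3 under the high-fat diet, a difference of 0.56 ± 0.342 that did not pass (adjusted p = 1 in limma), and the groups overlapped. Neither the diet by time test nor the test of a difference in rhythm called any row in limma (773 and 2004 rows at an unadjusted p under 0.05), and 1 of the 10, Avpr1a, stood under 0.05 before adjustment in each.

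For 7 of the 10 genes the share of variation between libraries of the same group was above the median of all rows, and for 9 the share between times of day was. A median splits all rows evenly, so these counts are a description. Libraries of the same group hold 68.6% of the degrees of freedom and had a median of 65.3% of the sum of squares on the log2 scale over 15173 rows, beside 15.8% for time of day. Above that 68.6% were 4 of the 10 genes, Lhx1, Six3, Six6 and Gpr176. Lhx1, Six3, Six6, Zfhx3, Vipr2 and Prokr2 had 66.2% to 74.6% between libraries, and Gpr176 84.1%. Rasl11b had 57.1% between times and 37.4% between libraries of a group, and Rgs16 37.2% and 54.2%. Diet took at most 1.19%, for Lhx1, beside a median of 0.861% of all rows. Avpr1a had the largest share for the combination of diet and time, 32.7%, beside a median of 15.1%.

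The size of that spread differed between genes. The SD between libraries of a group on the log2 scale was 0.647 for Six6, 0.516 for Vipr2, 0.449 for Rgs16, 0.437 for Prokr2, 0.419 for Zfhx3 and 0.387 for Lhx1. These 6 exceeded 90.5% to 96.4% of all rows, whose median was 0.188. The SDs were 0.272 for Rasl11b, 0.246 for Avpr1a, 0.211 for Six3 and 0.194 for Gpr176, nearer to that median, and all 10 were above it. Rows of a level like that of Six6 had a median SD of 0.239, and those like Rgs16 0.162. Rows like Rasl11b had 0.196, like Avpr1a 0.235, like Six3 0.172 and like Gpr176 0.19. Avpr1a and Gpr176 thus lay close to rows of their level. In the high-fat libraries of ZT 12, Six6 was 10.6, 3.38 and 2.75 and Vipr2 was 11.3, 6.9 and 3.15. Over all 36 libraries Six6 ranged 8.68-fold, from 1.22 to 10.6, Vipr2 5.82-fold, Lhx1 4.81-fold, Prokr2 4.09-fold and Rgs16 3.9-fold, while Six3 ranged 1.77-fold, from 18.4 to 32.6, and Gpr176 1.85-fold.

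The same libraries tended to be high or low for many of the genes. Chow ZT 4 replicate 2 was the lowest of its 3 libraries for all 10 genes, chow ZT 12 replicate 1 and high-fat ZT 0 replicate 3 for 9, and high-fat ZT 20 replicate 3 for 8. These libraries were the lowest of their 3 for 53.5%, 60.3%, 34.2% and 59.5% of all rows tested. On the deposited FPKM, before rescaling, they were the lowest for 10, 6, 9 and 6 of the genes. Chow ZT 0 replicate 2, chow ZT 4 replicate 3 and high-fat ZT 12 replicate 1 were the highest for 8, and for 33.7%, 37.9% and 25.7% of all rows. High-fat ZT 12 replicate 1 held the highest value of all 36 libraries for Lhx1 (6.25), Six3 (32.6), Six6 (10.6), Vipr2 (11.3) and Prokr2 (10.2). It also held the highest SCN marker sum, 248. In chow ZT 4, Lhx1 was 3.7, 1.54 and 4.17 and Prokr2 was 6.63, 2.66 and 6.62.

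Deviations from the 12 group means were compared for the 45 pairs of genes. Of these, 26 were correlated at an adjusted p under 0.05 in a permutation test within groups (100000 resamples, two-sided, adjusted over the 45), all 26 positively. The median r over the 45 pairs was 0.49. The lowest r called was 0.41, and 28 of the 45 pairs (62.2%) reached it, beside 22.4% of all pairs of rows tested. Points share the library and its rescaling. Lhx1 and Prokr2 were the closest, with Pearson r = 0.90 and Spearman rho = 0.86 (permutation p = 1e-05 for both, the smallest these permutations can give, adjusted p = 9e-05), and r = 0.87 without the 2 libraries farthest from the median. Vipr2 and Rgs16 had r = 0.87 (rho = 0.85), Six3 and Rgs16 r = 0.86 (rho = 0.87), Vipr2 and Prokr2 r = 0.83 (rho = 0.81), and Six6 and Vipr2 r = 0.82 (rho = 0.78), with permutation p of at most 3e-05 and adjusted p of at most 0.000225. Within diets, each of which is also 1 table of 18 libraries, all 26 pairs were positive. Their r ran from 0.29 to 0.89 under chow and from 0.32 to 0.92 under the high-fat diet, and Lhx1 and Prokr2 had r = 0.89 and 0.9. The 26 were called on these same libraries, so their signs within diets are a description and not a separate test.

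Lhx1, Vipr2 and Prokr2 were correlated with 7 of the 9 other genes, Six3, Six6, Gpr176 and Rgs16 with 6 and Avpr1a with 4. Zfhx3 was correlated with Gpr176 alone (r = 0.72, rho = 0.65, permutation p = 0.00029 and 0.00077, adjusted p = 0.00109), although its pairs with Lhx1 and Prokr2 lay close to the threshold (r = 0.46 and 0.45, adjusted permutation p = 0.0502 and 0.054). Rasl11b was correlated with Six3 (r = 0.49, rho = 0.44, adjusted permutation p = 0.0125) and Six6 (r = 0.42, rho = 0.41, adjusted permutation p = 0.0233), the latter not by rank (adjusted permutation p = 0.0515). Without the 3 libraries rich in striatal, thalamic or cortical transcripts, 21 of the 26 pairs passed again. Lost were Avpr1a with Lhx1, Vipr2 and Prokr2, Gpr176 with Rgs16, and Rasl11b with Six3 (adjusted permutation p from 0.055 to 0.0809). Gained were 4 pairs of Rasl11b, with Lhx1 (r = 0.48), Vipr2 (0.46), Prokr2 (0.51) and Avpr1a (0.53), so which genes passed with Rasl11b changed with those libraries. The 2 genes with a called cycle, Rgs16 and Rasl11b, had r = 0.27 between libraries of a group (adjusted permutation p = 0.164).

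**Figure D3:**
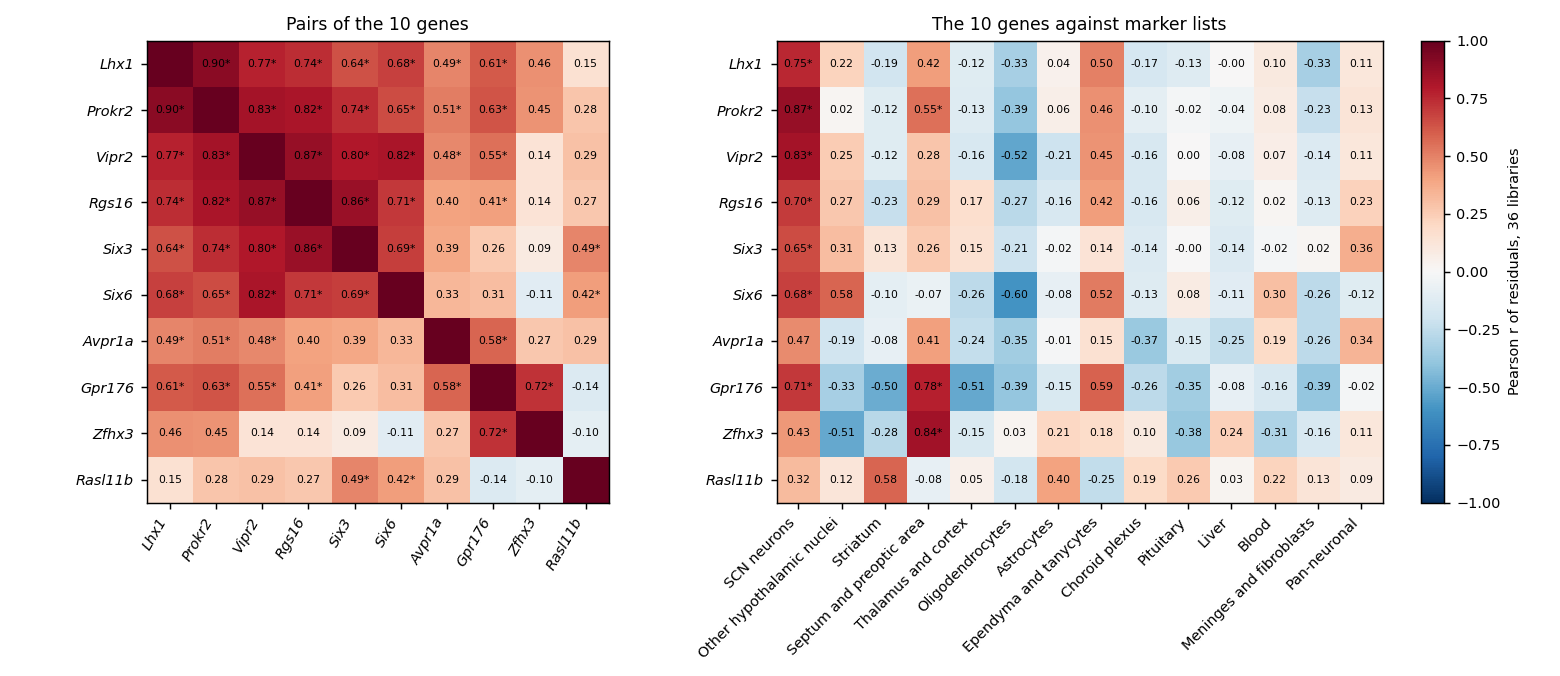
Pearson r of deviations from the 12 group means over 36 libraries, for pairs of the 10 genes (left) and for each gene against the mean log2 value of 14 marker lists (right), with asterisks where the adjusted permutation p was under 0.05. The block at the upper left holds Lhx1, Prokr2, Vipr2, Rgs16, Six3 and Six6, and Zfhx3 stands out for the septum and preoptic list.

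Against 14 marker lists, 10 of 140 relations passed the same test, all positive. Of these, 7 were with the SCN neuron list, of which none of the 10 genes is a member: Prokr2 at r = 0.87, Vipr2 at 0.83, Lhx1 at 0.75, Gpr176 at 0.71, Rgs16 at 0.70, Six6 at 0.68 and Six3 at 0.65, with adjusted permutation p from 0.0014 to 0.0157. The share of all rows that correlate as well with this list was not computed. The genes and lists were chosen with earlier results of these data known. Spearman rho was 0.87 for Prokr2 and 0.8 for Vipr2, and r was 0.84 and 0.81 without the 2 farthest libraries. Avpr1a had r = 0.47 with that list (adjusted permutation p = 0.139), Zfhx3 0.43 (0.265) and Rasl11b 0.32, which did not pass. Without the 3 libraries rich in striatal, thalamic or cortical transcripts Rasl11b had r = 0.58 (rho = 0.49, adjusted permutation p = 0.108). The other 3 were with the list of septum and preoptic area genes (Dlx5, Zic1, Zic4, Nts and Galr1): Zfhx3 at r = 0.84, Gpr176 at 0.78 and Prokr2 at 0.55, with adjusted permutation p of 0.0014, 0.00252 and 0.0428. Spearman rho was 0.78, 0.69 and 0.52 for these, with adjusted permutation p of 0.0014, 0.011 and 0.0762, so Prokr2 did not pass by rank. Of the 5 genes of that list 5 were detected, and its sum ran from 180.0 to 339 under chow and from 146 to 402 under the high-fat diet. No relation with oligodendrocyte, astrocyte, striatal, thalamic and cortical, liver or blood lists passed. The farthest below 0 was Six6 with oligodendrocyte transcripts at r = -0.60 (adjusted permutation p = 0.123). Six6 lay close to the threshold with the ependyma and tanycyte list (r = 0.52, adjusted permutation p = 0.0523). By rank that relation passed (rho = 0.56, adjusted permutation p = 0.0497). With markers of other hypothalamic nuclei Six6 had r = 0.58 (adjusted permutation p = 0.054). Within diets all 10 relations were positive, with r from 0.45 to 0.86 under chow and from 0.57 to 0.92 under the high-fat diet. They were called on these same libraries, so this too is a description and not a separate test. Without the same 3 libraries, Prokr2 and the septum and preoptic list no longer passed (r = 0.5, rho = 0.5, adjusted permutation p = 0.126), while Six6 and the ependyma and tanycyte list did (r = 0.65, rho = 0.64, adjusted permutation p = 0.0335). How much of each result on time and diet follows the SCN content of a library was not tested beyond the covariate fits given above.

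**Figure D4:**
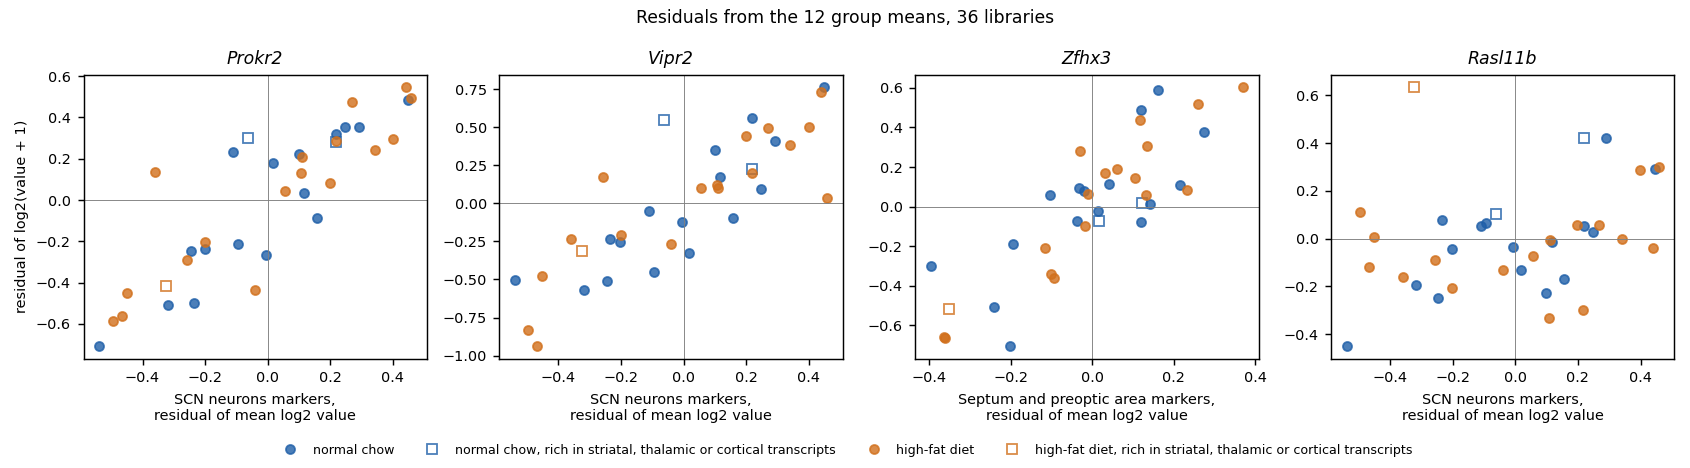
Deviations from the group means (log2 scale) of Prokr2, Vipr2, Zfhx3 and Rasl11b against those of the mean log2 value of a marker list, 1 point per library, 36 in all, with open squares for the 3 libraries rich in striatal, thalamic or cortical transcripts. Prokr2 and Vipr2 were higher where the SCN list was higher (r = 0.87 and 0.83) and Zfhx3 where the septum and preoptic list was (r = 0.84), while Rasl11b scattered more widely around the SCN list (r = 0.32, and 0.58 without the open squares).

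The 2 rows outside the 10 genes most like each gene over all 36 libraries, by Pearson r of log2 values among 15173 rows, are given as a description. The other 9 genes were left aside in this. Among them Prokr2 was closer to Vipr2 (r = 0.83), and Six3 to Rgs16 (r = 0.73), than to any row named here, Rgs16 with Six3 (0.73) and Vipr2 with Prokr2 (0.83) came between the 2 rows named, and Lhx1 had r = 0.79 with Prokr2. Outside the 10, Vipr2 was most like Vip, the gene of its own ligand (r = 0.86), and Nms, another SCN peptide gene (r = 0.78). Six6 was most like Vax1, a homeobox gene of the ventral forebrain (r = 0.82), and Nms (r = 0.78). Zfhx3 was most like its relative Zfhx4 (r = 0.94) and the protocadherin gene Pcdh17 (r = 0.93). Lhx1 was most like the transcription factor genes Onecut3 (r = 0.79) and Zfpm2 (r = 0.70), and Prokr2 like Sik1, a kinase gene, and Vip (both r = 0.71). Gpr176 was most like Rgag4 (r = 0.89) and the receptor gene Npbwr1 (r = 0.88). For Six3 the nearest outside the 10 were Ddx20 (r = 0.67) and Cnot8 (0.63), for Avpr1a Rab3b (0.68) and Trappc13 (0.66), and for Rgs16 Ccdc109b (0.78) and Gstm7 (0.70). Rasl11b was most like Fabp7, a fatty acid-binding protein gene of astrocytes, at r = 0.65, and Casq2 at 0.63. Within groups the r of Rasl11b with Fabp7 was 0.01, so the likeness lay in the means of the times and diets, whereas Zfhx3 and Zfhx4 had r = 0.96 within groups.

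Other genes of the same signalling chains were tested as a list. Of 10 ligands and relatives of the receptors 6 were tested over both diets, of 14 G proteins and their regulators all 14, and of 25 relatives and partners of the transcription factors and of RASL11B 21. None was called in limma for a cycle over both diets or for diet over all time points. For the cycle 0, 1 and 3 of them had an unadjusted p under 0.05 in limma, beside 13.1% of all rows. For diet 0, 1 and 0 did, beside 2.56% of all rows. The median fitted ranges were 0.30, 0.15 and 0.21 on the log2 scale beside 0.14 over all rows. The 3 smallest p for a cycle belonged to Rasl10b, a RAS-like relative (1.63-fold, peak at ZT 16.1, adjusted p = 0.183 in limma), the corepressor gene Tle1 (1.15-fold, adjusted p = 0.273) and the adenylyl cyclase gene Adcy5 (1.48-fold, adjusted p = 0.312). The fitted peak of Rasl10b was thus far from that of Rasl11b, at ZT 3.79. For diet the 3 smallest belonged to Gnai1 (-0.12 on the log2 scale), Tle1 (-0.06) and Rgs17 (-0.10), each with an adjusted p of 1 in limma. Among the ligands, Vip had a range of 1.35-fold, Prok2 of 1.41-fold and Avp of 1.35-fold, with adjusted p from 0.536 to 0.82 in limma.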

How the data were processed

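Gene expression was read by RNA sequencing from dissected SCN tissue in 36 samples. Per the labels' protocols, tissue was dissected fresh and snap frozen, and libraries were made with a stranded mRNA kit. Per the submitters' processing notes, Trimmomatic, TopHat and Cufflinks were used with mm10 and GRCm38; versions and annotation are not given in the sources used here. The authors deposited FPKM values per gene, in 1 table per diet; the unit is read from the values and from Cufflinks. The sources do not give reads per library, so no counting error was computed. ZT comes from the file headers.

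Values were rescaled to sum to 1000000 per library over rows shared by the 2 tables and taken as log2(value + 1). Rows with a mean of at least 1 were tested with limma 3.58.1 (mean-variance trend, R 4.3.3), two-sided or by F test, with Benjamini-Hochberg adjustment over all rows. Rhythms used cosine and sine terms of period 24 h; diet was tested over all time points, by time point and at each time. Correlations used deviations from the 12 group means, permuted within groups 100000 times (numpy 2.4.6). The limma and permutation steps were tested on simulated data. The genes, pathway and marker lists were chosen with earlier results of these data known. All 10 genes are described; of the pathway list, genes called in a comparison are named, and otherwise the 3 smallest p for a cycle and for diet; for each gene the 2 rows outside the 10 most like it are named. Vip, Prok2 and Avp were named as ligands after their values were seen. Alternatives were other scaling, pseudocount 0.1, no filter, a replicate block, marker scores as covariates, any difference among times, and leaving out libraries.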

Additional observations from a re-analysis of the deposited data

How the results depend on the processing

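The called values of the 10 genes were fitted ranges, which have no sign and so could not reverse. Rhythm differences and diet by time ranges have no sign either. Rhythm fits of 1 diet that left out a library of the other diet repeat the main fit, and they count as kept below. Of 3102 values under alternatives, 3003 kept their side of the threshold and any sign they had. Of the others, 52 fell below the threshold, 2 rose past it and 45 changed sign. These 45 were diet differences near 0 that were not called. On the log2 scale Six6 (-0.01) was 0.01 with FPKM as deposited, 0.05 with 3 tissue scores, 0.02 without thalamic and cortical and 0.07 without liver libraries, 0 with astrocyte and pan-neuronal scores, and -0.08 to 0.07 without 1 library. Six3 (-0.01) was 0 without striatal libraries, 0.01 without thalamic and cortical or liver libraries and with astrocyte and pan-neuronal scores, and -0.04 to 0.02 without 1 library. Gpr176 (0.01) was -0.01 with 3 tissue scores and -0.01 to 0.05 without 1 library; Rgs16 was -0.03 to 0.11 and Prokr2 0 to 0.1. Of 2688 diet differences at single times not printed here, which were counted apart, 110 changed sign and none was called. The cause of the moves was not tested. Rasl11b was called over both diets in all 36 fits without 1 library and in 13 of 13 other alternatives; Rgs16 in 10 and 7. Without 1 library, the genes called over both diets numbered 1 to 2, under chow 0 to 1. The number of the 10 called over both diets (2) was 1 with no filter (Rgs16 adjusted p = 0.0688 in limma), with a test of any difference among times (0.165), and without libraries rich in striatal (0.108), thalamic and cortical (0.105) or liver transcripts (0.0633), and with astrocyte and pan-neuronal scores (0.0927). These omissions, scores and the thalamus and cortex score were chosen after seeing the data. Under chow (1) it was 0 with no filter, with the replicate block, with any difference among times, without thalamic and cortical or liver libraries and with the thalamus and cortex score; under the high-fat diet (0) it was 2, Rgs16 and Rasl11b, with 3 neighbouring tissue scores (adjusted p = 0.033 and 0.0214 in limma). Among all rows, the 128 called under chow became 260 with median-of-ratios scaling, 72 with 3 tissue scores, 50 for any difference, 60 without thalamic and cortical and 204 without liver libraries, and 48 to 162 without 1 library (48 without chow ZT 16 replicate 3). The 11 under the high-fat diet became 5 with no filter, 7 with the replicate block, 20 with the SCN score, 39 with 3 scores, 2 for any difference, 5 without liver libraries, 5 with astrocyte and pan-neuronal scores and 4 to 13 without 1 library. The 331 over both diets became 518 with astrocyte and pan-neuronal scores, and the 2 for diet over all times became 5. For diet, ZT 12 (1) gave 0 with FPKM as deposited and with those scores, and 0 to 2 without 1 library. ZT 0 (0) gave 1 with no filter and 0 to 1. ZT 16 (0) gave 14 with 3 scores, 1 without liver libraries and 0 to 1. ZT 8 (0) gave 0 to 1099, the 1099 without high-fat ZT 8 replicate 1, and none of the 10 among them. Diet by time (0) gave 1 without striatal libraries and 0 to 1. Relations with marker lists (10) numbered 17 with median-of-ratios scaling and 7 to 11 without 1 library; pairs of genes (26) numbered 21 to 30 without 1 library. Replicate numbers were not taken as pairs: deviations of same-numbered libraries of the 2 diets correlated at -0.276 to 0.319, over 0.1 in 9 of 18 pairs, against 6 of 36 for different numbers. At ZT 12 all 3 exceeded it (0.285 to 0.319), and there the replicate block left 1 row and 0 of the 10 genes called. With the replicate block Rasl11b under chow had an adjusted p of 0.0582 in limma, and over both diets 2 of the 10 were called. For the correlations the filter was not varied and no marker score was used as a covariate. Their alternatives did include the replicate block and leaving the group means in. The number of libraries per group and the unknown read depth limit what could be detected.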
